A study of Homo sapiens with 30 samples.

Results

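The genes of cholesterol synthesis and sterol homeostasis were followed across the established inflammatory breast cancer line SUM190, which is ERBB2-amplified, and lines made resistant from it. A list named 32 genes by symbol and was chosen with earlier results of these data known. Their share of changed genes is therefore set against that of all genes as a description, not a test. All 32 were among the 20114 genes of the deposited table. They passed the filter of at least 1 CPM (read counts scaled to library size with TMM factors) in at least 2 libraries. PolyA RNA was sequenced from 30 libraries in 15 groups of 2. The doxorubicin-resistant line was grown in the vehicle DMSO, in 350 nM doxorubicin and in 1 µM doxorubicin. The paclitaxel-resistant line was grown in DMSO, in 6.5 nM and in 10 nM paclitaxel, in 15 µM ruxolitinib, and in a mix of ruxolitinib and 6.5 nM paclitaxel. For the parental line the groups were DMSO, 2.5 nM and 10 nM paclitaxel, 65 nM and 1 µM doxorubicin, 15 µM ruxolitinib, and ruxolitinib mixed with 2.5 nM paclitaxel. In both mixes the labelled ruxolitinib dose is 15 nM, and doses stand as labelled. Drugs were added 24 h after seeding and stayed for 72 h. Each resistant derivative is a single line, so an effect of resistance cannot be told apart from other differences between the lines. Doxorubicin is an anthracycline that poisons topoisomerase II, paclitaxel stabilises microtubules, and ruxolitinib inhibits the kinases JAK1 and JAK2.

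Cholesterol is built from acetyl-CoA through mevalonate, farnesyl diphosphate, squalene and lanosterol. When sterols in the endoplasmic reticulum are low, the escort SCAP carries the transcription factor SREBP2 (SREBF2) to the Golgi, where it is cut and released to raise the enzymes of the pathway. When sterols are high, INSIG1 and INSIG2 hold SCAP back, and oxysterols activate the nuclear receptors LXR-alpha (NR1H3) and LXR-beta (NR1H2), which raise the exporters ABCA1 and ABCG1 and the ubiquitin ligase MYLIP. The 32 genes were ordered by these roles: 7 of the early and mevalonate steps, 11 of the squalene and sterol steps, 4 of sterol sensing, 5 of transport, storage and other SREBP-linked functions, and 5 of the oxysterol receptors and their targets.

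Promoters of 4 sterol-sensing or sterol-step genes are shown because they differ in the motifs through which SREBP factors and their partner NF-Y are known to act. The sequences are from RefSeq (GRCh38.p14) and give the 200 bases before a gene's start, 5′ to 3′ on the strand of the gene. Capitals mark matches on either strand to TCACNCCAC (the core of a sterol regulatory element), CCAAT (the box bound by NF-Y, ATTGG where it lies on the other strand) or CACGTG (an E-box). MSMO1, the C4-methylsterol oxidase, lies at chr4:165327469-165327668 on the plus strand. SREBF2 lies at chr22:41832905-41833104, INSIG1 at chr7:155297678-155297877 and INSIG2 at chr2:118088271-118088470, all on the plus strand.
MSMO1: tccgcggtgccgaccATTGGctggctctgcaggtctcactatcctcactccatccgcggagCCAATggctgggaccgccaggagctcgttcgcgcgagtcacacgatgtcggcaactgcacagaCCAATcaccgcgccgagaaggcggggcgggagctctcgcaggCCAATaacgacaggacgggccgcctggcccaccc
SREBF2: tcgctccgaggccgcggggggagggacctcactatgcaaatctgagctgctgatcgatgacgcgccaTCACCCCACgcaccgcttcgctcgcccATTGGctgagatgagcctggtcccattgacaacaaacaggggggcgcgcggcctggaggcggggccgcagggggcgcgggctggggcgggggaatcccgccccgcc
INSIG1: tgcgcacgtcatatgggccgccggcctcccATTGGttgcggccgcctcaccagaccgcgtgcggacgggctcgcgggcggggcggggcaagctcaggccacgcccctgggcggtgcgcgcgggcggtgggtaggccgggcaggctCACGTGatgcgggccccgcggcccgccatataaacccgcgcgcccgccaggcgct
INSIG2: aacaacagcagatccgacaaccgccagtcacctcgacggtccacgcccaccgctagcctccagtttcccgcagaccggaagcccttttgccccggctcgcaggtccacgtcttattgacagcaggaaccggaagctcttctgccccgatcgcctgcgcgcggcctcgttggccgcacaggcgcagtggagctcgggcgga
The window of MSMO1 held 4 CCAAT boxes, at 185, 139, 76 and 34 bases before the start. That of SREBF2 held the sterol element at 133 bases and a CCAAT box at 106 bases, and that of INSIG1 held a CCAAT box at 170 bases and an E-box at 55 bases. Neither of the 2 RefSeq start windows of INSIG2 held any of the 3 motifs.

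RefSeq windows of 250 bases before the start were found for 28 of the 32 genes. SQLE, FDFT1, ACAT2 and ABCG1 were without one. A CCAAT box was present in 20 of these 28 genes (71.4%), against 37.0% of 27305 genes with a window. Here and below, the genes with a window were not limited to those that passed the CPM filter, as the 28 did. By role the CCAAT box was found in 5 of 6 early and mevalonate genes, 8 of 9 squalene and sterol-step genes, 2 of 4 sensing genes, 3 of 5 transport and storage genes, and 2 of 4 receptor and target genes. MVK and NSDHL had the most boxes, with 5 each. TCACNCCAC was found in SREBF2 alone of the 28 (3.57%, against 1.09% of genes), and CACGTG in SC5D, SCAP, INSIG1 and ABCA1 (14.3%, against 7.73%). For the sterol element only the 1 string TCACNCCAC was searched, within 250 bases. Variants of it and elements elsewhere were not counted, so a gene without a match may still have such an element. These matches are a description of the letters, not of binding.

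Libraries held 18443749 to 32669995 reads in genes, and the 3 reads that a count of 0 allows correspond to 0.0947 to 0.163 CPM (counting error only). The 8 epithelial markers were at 84.8 to 3736 CPM in every library. Of 10 markers of fibroblasts, endothelium and leukocytes, 9 were in the table with a maximum of 12.0 CPM. COL1A2 was at 0 in 22 libraries and CD3E in 24. The parental DMSO libraries differed from each other more than the pair of any other group did (chi-square per degree of freedom 36.2, against 2.19 to 24.4), and their difference followed transcript GC content (Spearman rho 0.789 across genes, which are not independent replicates). Of the 15 such relations, those of the pairs with 1 µM doxorubicin (-0.72), 10 nM paclitaxel (-0.66) and ruxolitinib with paclitaxel (0.68) in parental cells and 350 nM doxorubicin in the doxorubicin-resistant line (-0.68) were nearly as strong. Counts of called genes that rest on the parental DMSO libraries are given with each of them left out. Whether the 2 libraries of a group came from separate cultures is not labelled, so the p-values reflect only how these libraries vary, which may be technical. In bulk RNA, fewer cells with a transcript and less transcript per cell cannot be told apart.

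Fold changes are differences of log2(CPM + 1), which understate the change of genes at low CPM. For log2 fold changes ± gives the standard error, and for CPM levels the SD (n = 2 libraries). A gene was called at a limma Benjamini-Hochberg adjusted p under 0.05 over all 12743 tested genes, and "rose" or "fell" is used of called genes. Of the 32 genes, FDPS, CYP51A1, HSD17B7 and TMEM97 have named pseudogenes (8, 3, 2 and 2 in GENCODE), so their reads may have been divided between copies. Strand-specific counting was not stated, so reads from overlapping antisense transcripts cannot be told apart.

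**Figure D1:**
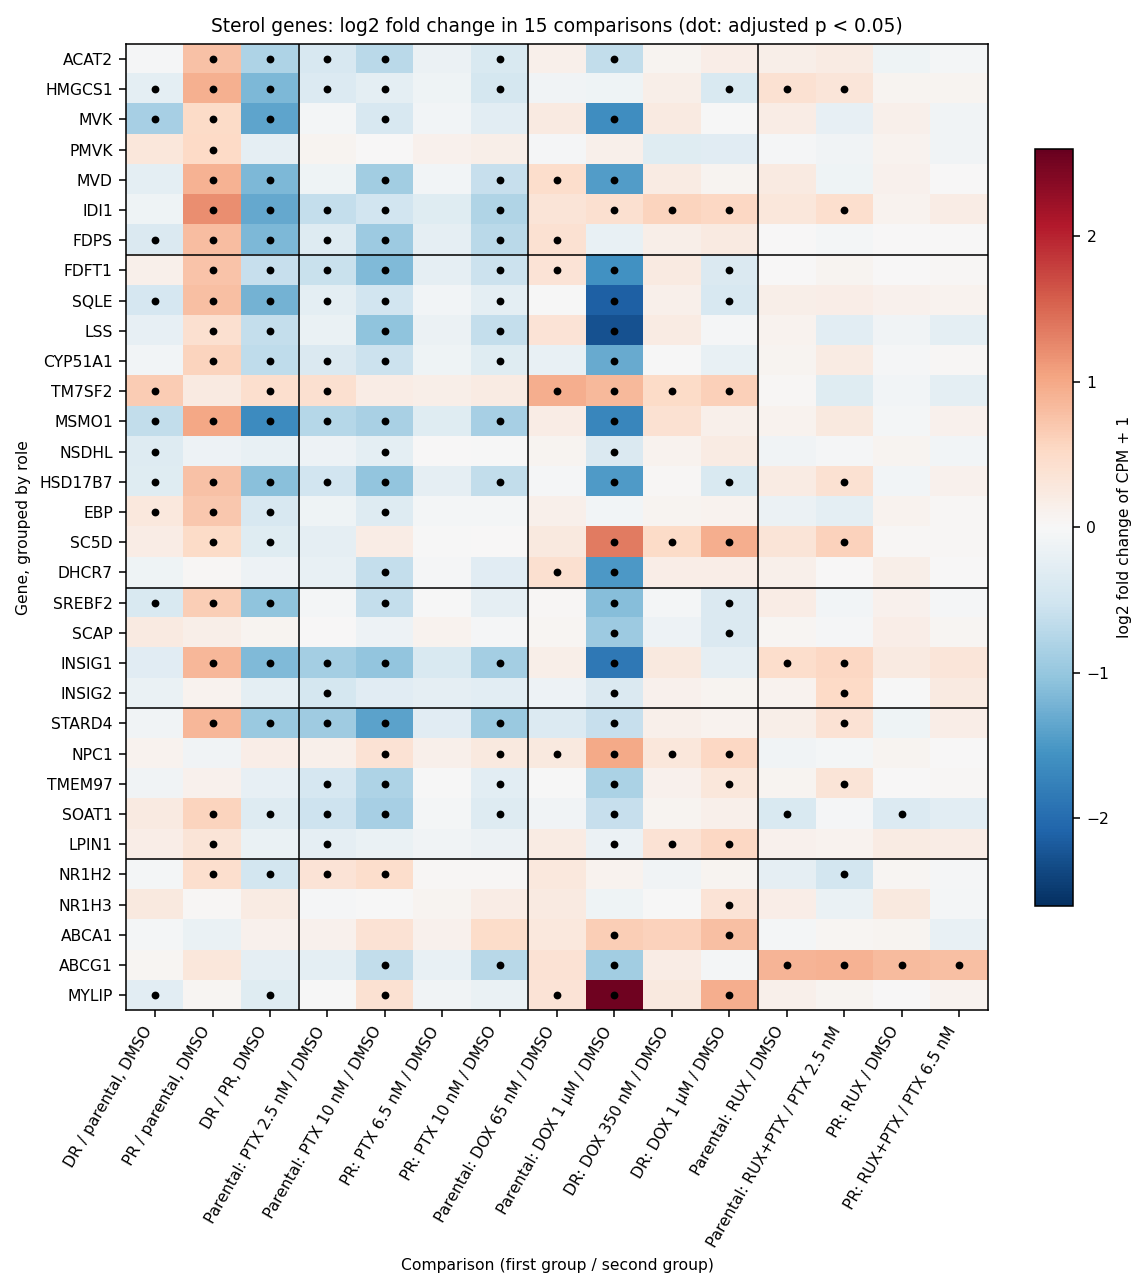
Colour gives the log2 fold change of CPM + 1 for each of the 32 genes (rows, grouped by role and separated by lines) in 15 comparisons of group pairs (columns), and a black dot marks a limma adjusted p under 0.05. The column of paclitaxel-resistant against parental cells holds 21 dots, all on higher values, while the columns of 10 nM paclitaxel and of 1 µM doxorubicin in parental cells hold 21 and 20 dots on lower values.

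Across the 15 groups, the highest group mean lay in the paclitaxel-resistant line for 22 of the 32 genes, in the doxorubicin-resistant line for 5 and in parental cells for 5. The lowest group mean lay in parental cells for 29 genes, and for 15 of these in the 1 µM doxorubicin group. The lines held unequal numbers of groups, with the most in parental cells. The same counts were not made over all tested genes, so these do not show a trait of the 32 genes. The ratio of the highest to the lowest group mean was between 1.36 (NSDHL, the C4 decarboxylating dehydrogenase) and 8.32 (SQLE, squalene epoxidase), with a median of 3.53. INSIG1 followed SQLE, at 202 ± 28.96 CPM in paclitaxel-resistant cells with ruxolitinib and 25.0 ± 4.30 CPM in parental cells with 1 µM doxorubicin (n = 2 each). INSIG2, its paralogue, was among the steadiest, with a ratio of 1.48.

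**Figure D2:**
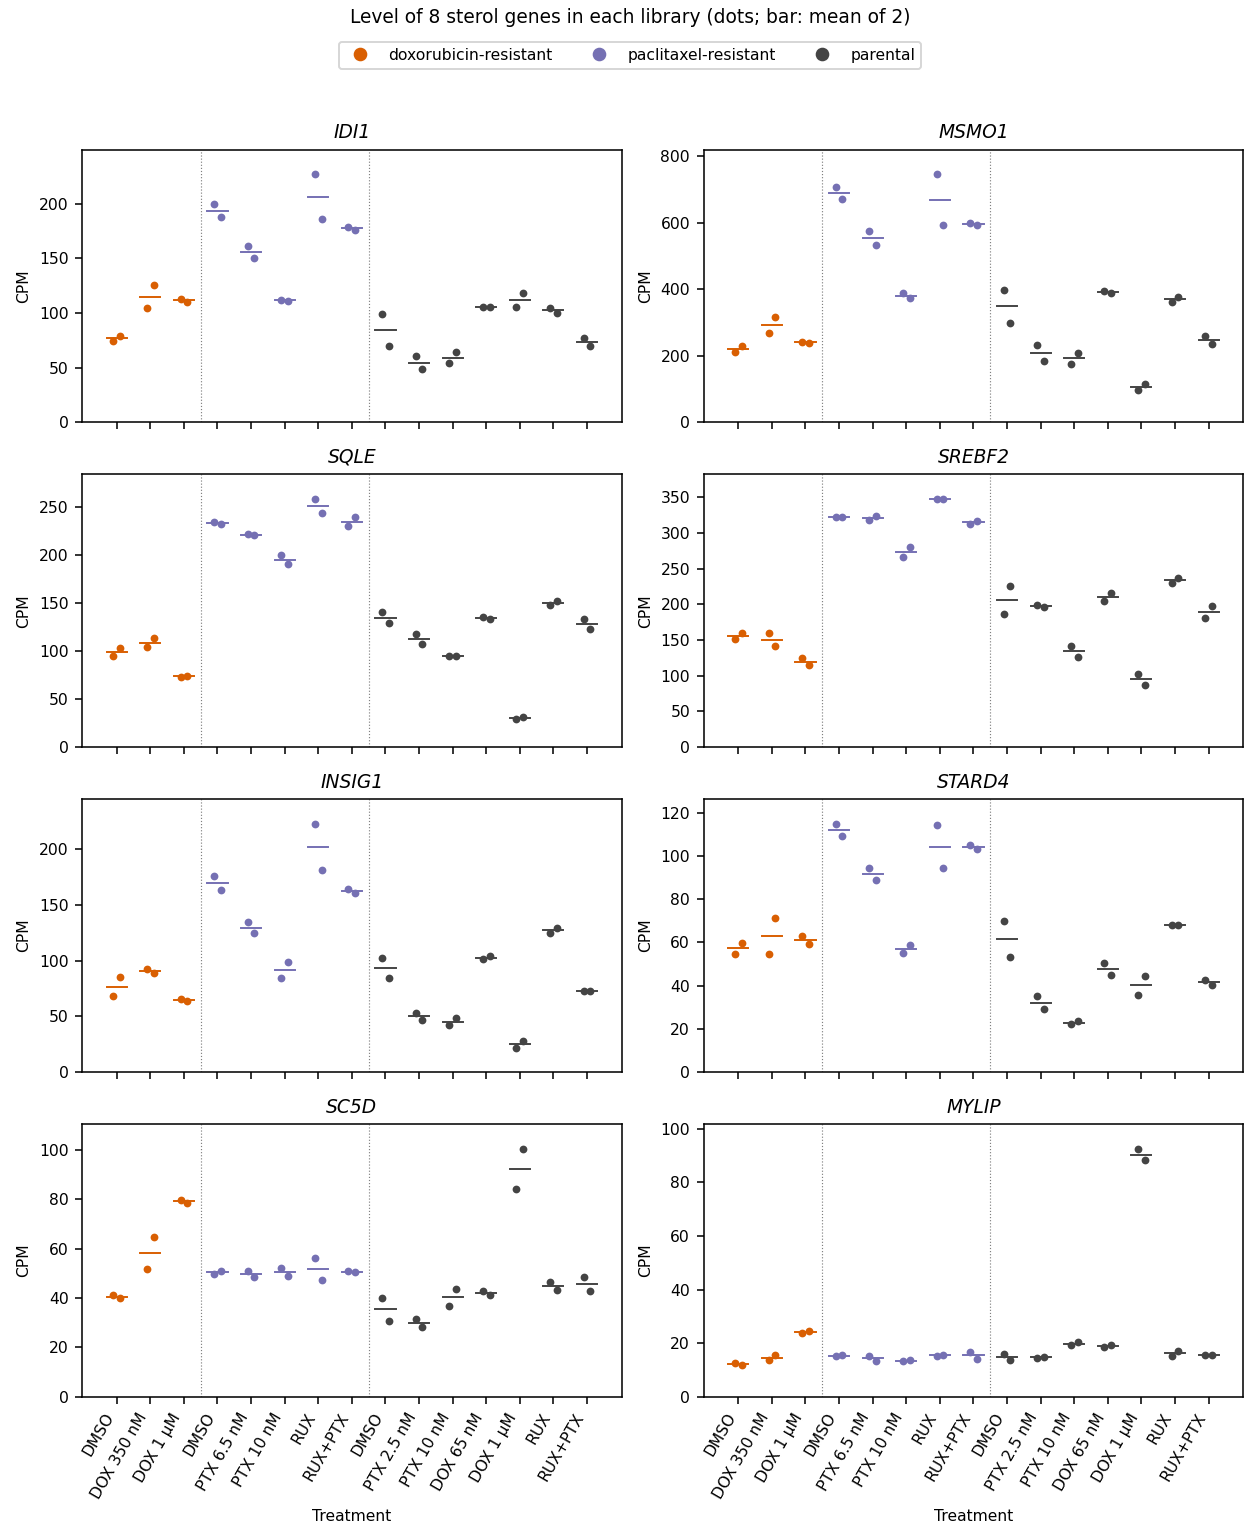
Each dot is the CPM of one library and each bar the mean of the 2 libraries of a group, for 8 genes (panels, with axes that start at 0), with treatments along the horizontal axis and the doxorubicin-resistant, paclitaxel-resistant and parental lines in colour. IDI1, MSMO1, SQLE, SREBF2, INSIG1 and STARD4 were highest in the paclitaxel-resistant line, whereas SC5D and MYLIP were highest in parental cells with 1 µM doxorubicin.

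Paclitaxel-resistant cells in DMSO had higher transcripts of the synthesis pathway than parental cells in DMSO. IDI1, the isopentenyl diphosphate isomerase, was at 199.8 and 187 CPM in the paclitaxel-resistant libraries, against 99.0 and 69.6 CPM in the parental ones, a log2 fold change of 1.21 ± 0.13 (limma adjusted p = 1.19e-07). MSMO1 was at 707 and 671 CPM in paclitaxel-resistant cells, against 398 and 298 CPM in parental cells (1.00 ± 0.13, limma adjusted p = 1.55e-06). HMGCS1, which makes HMG-CoA, was at 250.2 and 244 CPM in paclitaxel-resistant cells, against 144 and 117 CPM in parental cells (0.92 ± 0.09, limma adjusted p = 1.82e-08). For all 3 genes both paclitaxel-resistant libraries lay above both parental libraries.

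In this comparison 21 of the 32 genes rose and 0 fell, against 16.3% of all tested genes called higher and 16.3% called lower. The median log2 fold change was 0.51 over the 32 genes and -0.011 over all tested genes. All 7 genes of the early and mevalonate steps rose, with MVD, the mevalonate diphosphate decarboxylase (0.91), and FDPS, the farnesyl diphosphate synthase (0.80), among them. Of the 11 squalene and sterol-step genes 8 rose, including SQLE (0.79), HSD17B7, a 3-ketosteroid reductase (0.76), FDFT1, the squalene synthase (0.74), and EBP, the sterol isomerase (0.70). TM7SF2, a sterol C14 reductase (0.24), NSDHL (-0.14) and DHCR7, the last reductase of one branch of the pathway (0.02), were not called.

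Of the sensing genes, SREBF2 and INSIG1 rose and SCAP and INSIG2 were not called. SREBF2 was at 323 and 323 CPM in paclitaxel-resistant libraries, against 187 and 226 CPM in parental ones (0.65 ± 0.09, limma adjusted p = 4.66e-06), with no overlap. STARD4, a soluble sterol carrier, rose by 0.86, SOAT1, which esterifies cholesterol for storage, by 0.57, and LPIN1, a phosphatidate phosphatase, by 0.34. Of the receptors and their targets only NR1H2 rose (0.43). ABCA1 (-0.17), ABCG1 (0.30), NR1H3 (0.04) and MYLIP (0.05) did not pass the test. Without parental DMSO replicate 1 there were 17 calls, and without replicate 2 there were 21. The calls of LSS, PMVK, NR1H2, MVK and SC5D were lost in at least 1 of the alternatives, and those of the other 16 genes held in all of them.

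Among other genes of the pathway, 7 of 21 tested sterol genes rose and 2 fell, and 7 of 13 fatty acid synthesis genes rose and 0 fell in paclitaxel-resistant against parental cells. The largest changes were in the desaturases FADS2 (1.56 ± 0.16) and FADS1 (0.85 ± 0.12) and in MBTPS2, the site-2 protease that cuts SREBP (0.66 ± 0.12).

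Doxorubicin-resistant cells in DMSO had fewer called genes against parental cells, and most of these were lower. MVK, the mevalonate kinase, was at 8.15 and 8.69 CPM in doxorubicin-resistant libraries, against 14.8 and 17.7 CPM in parental ones (-0.87 ± 0.14, limma adjusted p = 5.82e-05). MSMO1 was at 210.0 and 229.6 CPM in doxorubicin-resistant cells, against 398 and 298 CPM in parental cells (-0.65 ± 0.13, limma adjusted p = 0.000419). TM7SF2 went the other way, with 10.7 and 9.77 CPM in doxorubicin-resistant cells, against 5.67 and 6.51 CPM in parental cells (0.67 ± 0.14, limma adjusted p = 0.000681). The libraries of these groups did not overlap for any of the 3 genes.

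Here 2 of the 32 genes rose (TM7SF2 and EBP, 0.28) and 9 fell, against 12.3% of tested genes called higher and 15.2% called lower, so the genes that rose were no larger a share of the 32 than of all genes. The median log2 fold change was -0.088 over the 32 genes and -0.005 over all tested genes. The genes that fell were HMGCS1, MVK and FDPS of the mevalonate steps, SQLE, MSMO1, NSDHL and HSD17B7 of the sterol steps, SREBF2 (-0.40) and MYLIP (-0.27), while none of the 5 transport and storage genes was called. The calls of MVK, MSMO1, SQLE (-0.44) and TM7SF2 held in every alternative. Without doxorubicin-resistant DMSO replicate 1 there were 6 calls, without parental DMSO replicate 1 there were 12 and without parental DMSO replicate 2 there were 11. A fit to only the lines compared gave 7 calls and a GC and length correction gave 18. The summed CPM of the 9 markers of other cell types was 13.7 in both doxorubicin-resistant libraries, against 9.67 to 12.2 in the parental ones. Of 5 tested markers 1 was higher and 1 lower, and their part in the result was not tested. Of the other sterol genes 1 rose and 7 fell of 21, and 0 rose and 6 fell of 13 fatty acid genes, led by FADS1 (-1.78 ± 0.12) and PNPLA3, a lipid droplet protein (-1.21 ± 0.12).

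Set against each other in DMSO, the doxorubicin-resistant line was below the paclitaxel-resistant line through most of the pathway. MSMO1 was at 210.0 and 229.6 CPM in doxorubicin-resistant and 707 and 671 CPM in paclitaxel-resistant libraries (-1.65 ± 0.13, limma adjusted p = 4.20e-10). MVK was at 8.15 and 8.69 CPM in doxorubicin-resistant and 24.0 and 22.6 CPM in paclitaxel-resistant libraries (-1.37 ± 0.14, limma adjusted p = 6.97e-08). IDI1 was at 74.6 and 79.0 CPM in doxorubicin-resistant and 199.8 and 187 CPM in paclitaxel-resistant libraries (-1.32 ± 0.13, limma adjusted p = 2.39e-08). These groups stood far apart for all 3 genes, with no overlap.

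In this comparison 20 genes were called lower and 1 higher, against 18.4% and 15.6% of tested genes, with a median log2 fold change of -0.453 over the 32 genes and 0.005 over all. The genes called lower comprised 6 of 7 mevalonate genes, 8 of 11 sterol-step genes, SREBF2 (-1.05) and INSIG1 (-1.15), STARD4 (-0.95) and SOAT1, and NR1H2 and MYLIP. TM7SF2 was the gene called higher (0.43), although its call was lost without doxorubicin-resistant DMSO replicate 1 or paclitaxel-resistant DMSO replicate 2. The calls of 16 of the 21 genes held in every alternative. For the remaining sterol genes, of 21 tested, 13 were lower and 0 higher, and of 13 fatty acid genes 8 were lower and 0 higher, with FADS1 at -2.63 ± 0.12 and FADS2 at -2.09 ± 0.16. The summed CPM of the markers of other cell types was 13.7 in both doxorubicin-resistant libraries, against 11.8 to 12.3 in the paclitaxel-resistant ones. Of 5 tested markers, however, 1 was higher and 2 were lower in the doxorubicin-resistant line. Their part in the result was not tested. The comparisons between lines share their DMSO libraries and are not independent of each other.

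Paclitaxel lowered many genes of the pathway in parental cells at both doses. At 2.5 nM STARD4 was at 35.3 and 28.9 CPM in treated libraries, against 70.0 and 53.3 CPM in DMSO (-0.91 ± 0.13, limma adjusted p = 6.51e-05). INSIG1 was at 53.2 and 47.1 CPM with 2.5 nM paclitaxel, against 102 and 84.1 CPM in DMSO (-0.88 ± 0.12, limma adjusted p = 5.84e-05). MSMO1 was at 232 and 184 CPM with 2.5 nM paclitaxel, against 398 and 298 CPM in DMSO (-0.73 ± 0.13, limma adjusted p = 0.000542). The treated libraries lay below both DMSO libraries in each case.

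At 2.5 nM, 15 of the 32 genes fell and 2 rose, against 17.1% and 9.71% of tested genes, with a median of -0.236 over the 32 genes and -0.015 over all. The 2 genes that rose were TM7SF2 (0.42) and NR1H2 (0.35). FDFT1 (-0.59), SOAT1 (-0.53) and TMEM97, a sterol-responsive membrane protein (-0.44), also fell, and with STARD4, INSIG1 and MSMO1 they were the 6 calls that held in every alternative. There were 9 calls without parental DMSO replicate 1, without replicate 2 there were 16, and without replicate 2 of the treated group there were 6. A fit to only the parental line gave 9. The calls of TM7SF2 (0.19 to 0.50 over the alternatives) and NR1H2 (0.15 to 0.55) were lost without parental DMSO replicate 1 and without either treated library. Both were also lost in the fit to only the parental line and under the GC and length correction, with or without replicate number as a block. NR1H2 further lost its call without the CPM filter. Markers of other cell types summed to 12.6 to 13.7 CPM with 2.5 nM paclitaxel, against 9.67 to 12.2 CPM in DMSO, with 2 of 5 tested markers higher and 0 lower, and their part in the result was not tested.

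At 10 nM more genes of the pathway were called. STARD4 was at 22.1 and 23.4 CPM with 10 nM paclitaxel, against 70.0 and 53.3 CPM in DMSO (-1.39 ± 0.13, limma adjusted p = 1.19e-08). FDFT1 was at 65.6 and 62.6 CPM with 10 nM paclitaxel, against 147 and 138 CPM in DMSO (-1.14 ± 0.09, limma adjusted p = 4.80e-10). LSS, the lanosterol synthase, was at 28.1 and 22.0 CPM with 10 nM paclitaxel, against 45.9 and 59.7 CPM in DMSO (-1.05 ± 0.12, limma adjusted p = 4.30e-07). No treated library reached the DMSO range for these genes.

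At 10 nM, 21 genes fell and 3 rose in parental cells, against 28.1% and 20.1% of tested genes, with a median of -0.495 over the 32 genes and -0.045 over all. Among the genes that fell were 6 of 7 mevalonate genes, 9 of 11 sterol-step genes, SREBF2 (-0.61), INSIG1 (-1.02), TMEM97 (-0.80), SOAT1 (-0.86) and ABCG1 (-0.63). NPC1, which exports cholesterol from lysosomes, rose (0.37), as did NR1H2 (0.45) and MYLIP (0.40). PMVK (0.0026), SCAP (-0.13), INSIG2 (-0.29) and SC5D, the lathosterol desaturase (0.18), were not called. Without parental DMSO replicate 1 there were 24 calls and without replicate 2 there were 22, and 18 of the 24 calls held in every alternative. NR1H2 (0.26 to 0.65) was not called without parental DMSO replicate 1 and without treated replicate 1. Of 13 fatty acid genes 11 fell at each dose and 0 rose, with the desaturase SCD at -1.05 ± 0.10 at 2.5 nM and -1.96 ± 0.10 at 10 nM. Among the 21 other sterol genes 7 fell and 2 rose at 2.5 nM, and 12 fell and 4 rose at 10 nM. Both doses were set against the same DMSO libraries.

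In paclitaxel-resistant cells 6.5 nM paclitaxel gave no call, and 10 nM lowered 16 of the 32 genes. At 6.5 nM 0 of the 32 genes rose and 0 fell by limma, against 0.0706% and 0.0235% of tested genes. At an unadjusted p under 0.05 there were 7, and the voom fit to recovered reads also called 0. The median was -0.073 over the 32 genes and 0.003 over all, and 24 of the 32 values were negative. MSMO1 was at 573 and 534 CPM in these libraries, against 707 and 671 CPM in DMSO (-0.32 ± 0.13, limma adjusted p = 0.688). A fit to only this line gave 1 call and the GC and length correction gave 2. Parental cells received no matching dose.

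At 10 nM in paclitaxel-resistant cells STARD4 was at 55.2 and 58.8 CPM, against 115 and 109 CPM in DMSO (-0.96 ± 0.13, limma adjusted p = 2.03e-05). INSIG1 was at 84.0 and 98.8 CPM with 10 nM paclitaxel, against 176 and 164 CPM in DMSO (-0.89 ± 0.12, limma adjusted p = 2.78e-05). MSMO1 was at 388 and 372 CPM with 10 nM paclitaxel, against 707 and 671 CPM in DMSO (-0.86 ± 0.13, limma adjusted p = 7.76e-05). The treated libraries were well below the DMSO libraries, and STARD4 then lay within the range of parental DMSO cells (70.0 and 53.3 CPM).

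Of the 32 genes 16 fell and 1 rose, against 6.99% and 6.62% of tested genes, with a median of -0.283 over the 32 genes and 0.00 over all. The gene that rose was NPC1 (0.25), and its call (0.16 to 0.34 over the alternatives) was lost without paclitaxel-resistant DMSO replicate 1 and without treated replicate 1. All 16 genes that fell in the paclitaxel-resistant line were among the 21 that fell at the same dose in parental cells, which share no library with them. Over all tested genes, 761 of the 891 that fell in the paclitaxel-resistant line (85.4%) also fell in parental cells, where they were 21.3% of the 3581 that fell. IDI1 (-0.79), FDPS (-0.69), ABCG1 (-0.73), HSD17B7 (-0.64) and LSS (-0.62) were among them, and 10 of the 17 calls held in every alternative. Without paclitaxel-resistant DMSO replicate 1 there were 11 calls. The summed CPM of the markers of other cell types was 13.9 to 14.4 with 10 nM paclitaxel, against 11.8 to 12.3 in DMSO, and its part in the result was not tested. Of 13 fatty acid genes 9 fell and 0 rose, led by SCD (-1.50 ± 0.10), and of 21 other sterol genes 4 fell and 0 rose. At 6.5 nM, 1 fatty acid gene fell (SCD, -0.52 ± 0.10) and no other sterol gene was called by limma.

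Tested directly, the response to 10 nM paclitaxel in the paclitaxel-resistant minus the parental line differed for 4 of the 32 genes, 3 with a positive difference and 1 with a negative one, against 6.87% and 3.88% of tested genes, shares near those of the 32 genes. The difference was 0.58 ± 0.12 for FDFT1 (limma adjusted p = 0.00347), from a response of -0.56 in paclitaxel-resistant and -1.14 in parental cells. For TMEM97 it was 0.52 ± 0.12 (limma adjusted p = 0.00916) and for SOAT1 0.52 ± 0.14 (limma adjusted p = 0.0161), both genes that fell in each line. MYLIP had a difference of -0.57 ± 0.13 (limma adjusted p = 0.00766), at 13.3 and 13.7 CPM with paclitaxel against 15.2 and 15.5 CPM in DMSO in the paclitaxel-resistant line, and 19.1 and 20.4 CPM with paclitaxel against 15.9 and 13.7 CPM in DMSO in parental cells. The median difference was 0.17 over the 32 genes and 0.046 over all tested genes. There were 6 calls without parental DMSO replicate 1, without parental DMSO replicate 2 there were 7 and without paclitaxel-resistant DMSO replicate 2 there were 2, and the GC and length correction gave 15. TMEM97 was not called without paclitaxel-resistant DMSO replicate 2 (0.46), and FDFT1 and MYLIP were called in every alternative. The call of SOAT1 (0.35 to 0.68) was lost without parental DMSO replicate 1, without either paclitaxel-resistant DMSO library and without treated paclitaxel-resistant replicate 1. The comparisons of the other pathway genes gave 3 positive differences of 21 other sterol genes, with SCARB1, a receptor for high-density lipoprotein, at 0.73 ± 0.13, and 3 of 13 fatty acid genes.

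**Figure D3:**
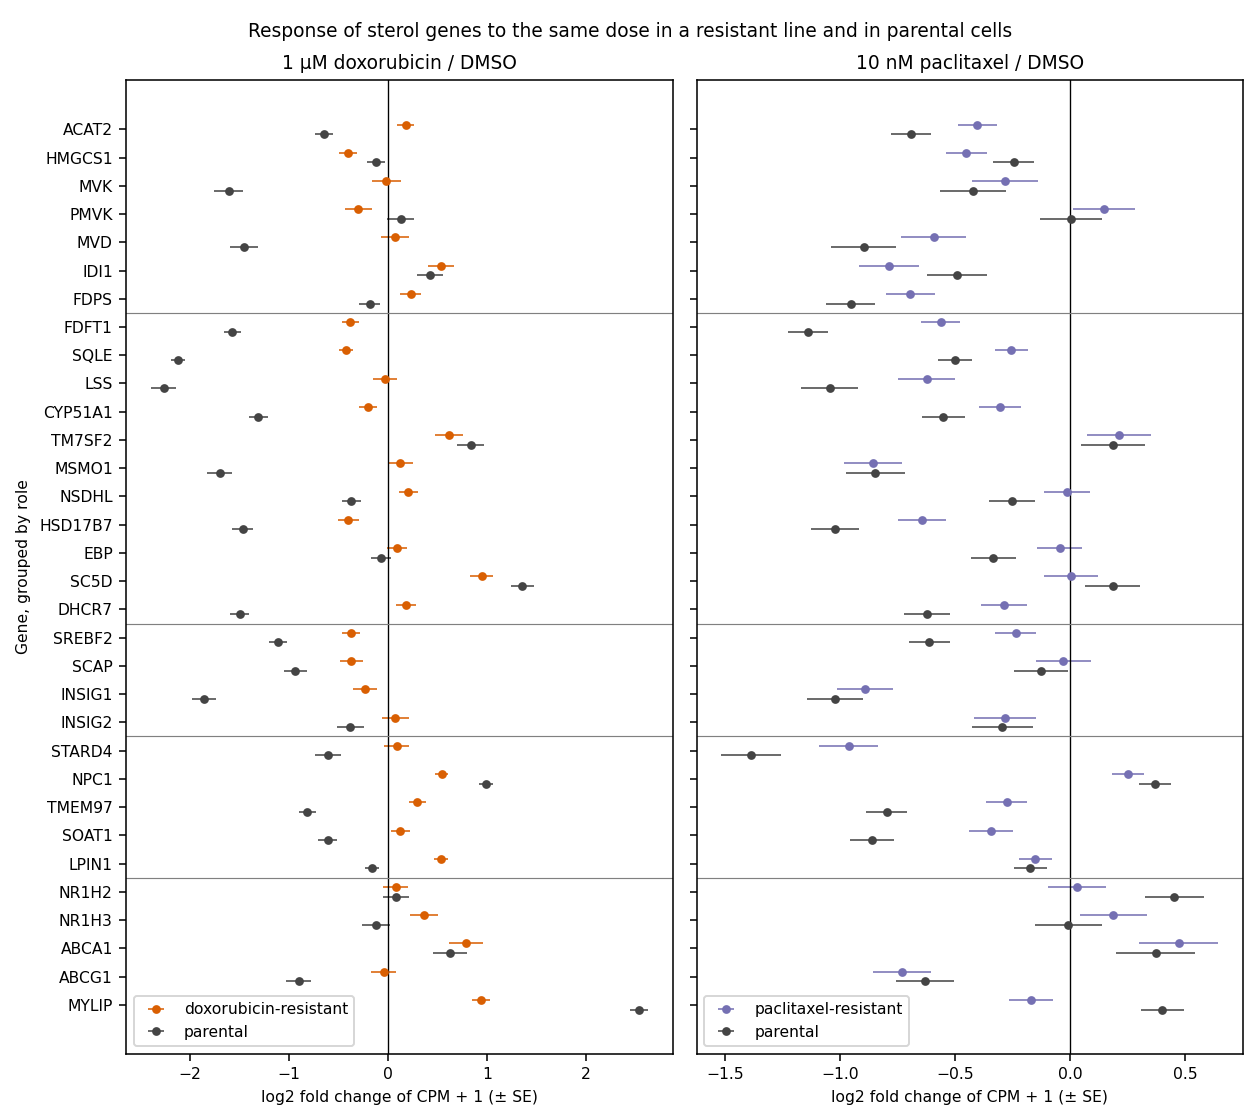
Points give the log2 fold change of CPM + 1 with its standard error for each of the 32 genes, on the left for 1 µM doxorubicin in doxorubicin-resistant (orange) and parental (grey) cells and on the right for 10 nM paclitaxel in paclitaxel-resistant (violet) and parental cells. In the left panel LSS lies at -0.03 in doxorubicin-resistant and -2.27 in parental cells, while in the right panel the points of both lines lie mostly on the same side of 0.

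At 65 nM doxorubicin the pathway of parental cells held a few higher genes. TM7SF2 was at 11.2 and 14.1 CPM in treated libraries, against 5.67 and 6.51 CPM in DMSO (0.94 ± 0.14, limma adjusted p = 0.00013). MVD was at 42.5 and 51.5 CPM with 65 nM doxorubicin, against 29.8 and 38.7 CPM in DMSO (0.45 ± 0.14, limma adjusted p = 0.0407). DHCR7 was at 309 and 358 CPM with 65 nM doxorubicin, against 233 and 269 CPM in DMSO (0.41 ± 0.10, limma adjusted p = 0.00996). TM7SF2 was clearly apart from DMSO, while the gaps for MVD and DHCR7 were smaller than the spread within the treated pair.

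At 65 nM, 7 of the 32 genes rose and 0 fell, against 5.21% and 5.94% of tested genes, with a median of 0.193 over the 32 genes and -0.013 over all. FDPS (0.39), FDFT1 (0.35), MYLIP (0.35) and NPC1 (0.25) were the others. TM7SF2 alone of the 7 was called in every alternative. Without treated replicate 2 there was 1 call, without parental DMSO replicate 1 there were 4, without parental DMSO replicate 2 there were 12, a fit to only the parental line gave 1, and the GC and length correction gave 14. MVD had a log2 fold change of 0.27 and DHCR7 of 0.30 without parental DMSO replicate 1, neither of them called. Markers of other cell types summed to 13.3 to 13.4 CPM with 65 nM doxorubicin, against 9.67 to 12.2 CPM in DMSO, with 1 of 5 tested markers higher and 0 lower, and their part in the result was not tested. Of 21 other sterol genes 4 rose and 2 fell, and of 13 fatty acid genes 3 rose and 1 fell.

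At 1 µM doxorubicin parental cells had lower sterol-step and sensing genes and a higher MYLIP. MYLIP, whose product marks lipoprotein receptors for degradation, was at 92.4 and 88.2 CPM in treated libraries, against 15.9 and 13.7 CPM in DMSO (2.54 ± 0.09, limma adjusted p = 9.49e-17). LSS was at 10.8 and 9.39 CPM with 1 µM doxorubicin, against 45.9 and 59.7 CPM in DMSO (-2.27 ± 0.12, limma adjusted p = 8.61e-14). SQLE was at 29.1 and 31.4 CPM with 1 µM doxorubicin, against 141 and 129 CPM in DMSO (-2.12 ± 0.07, limma adjusted p = 2.67e-17). Each of these pairs of libraries stood far from its DMSO pair.

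Here 20 of the 32 genes fell and 6 rose, against 41.5% and 34.3% of tested genes, the largest shares of any comparison of a pair of groups. The genes that fell thus made up more, and those that rose less, of the 32 than of all genes. The median was -0.607 over the 32 genes and -0.073 over all. Of the mevalonate genes, MVK (-1.61), MVD (-1.46) and ACAT2, the cytosolic thiolase (-0.65), fell, IDI1 rose (0.42), and HMGCS1 (-0.12), PMVK (0.13) and FDPS (-0.19) were not called. Of the sterol-step genes 8 fell, among them MSMO1 (-1.70), FDFT1 (-1.57), DHCR7 (-1.50), HSD17B7 (-1.46) and CYP51A1, the lanosterol demethylase (-1.31). SC5D (1.36) and TM7SF2 (0.84) rose. The call of IDI1 (0.17 to 0.67 over the alternatives) was lost without parental DMSO replicate 2 and without treated replicate 2.

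All 4 sensing genes fell with 1 µM doxorubicin: INSIG1 (-1.86), SREBF2 (-1.11), SCAP (-0.93) and INSIG2 (-0.38). The call of INSIG2 (-0.54 to -0.22 over the alternatives) was lost without parental DMSO replicate 1, without treated replicate 1 and under median-of-ratios scaling. NPC1 rose by 0.99, and STARD4, TMEM97, SOAT1 and LPIN1 fell, LPIN1 by the least (-0.16). The exporters moved apart. ABCA1 was at 1.30 and 1.26 CPM with 1 µM doxorubicin, against 0.526 and 0.419 CPM in DMSO (0.63 ± 0.17, limma adjusted p = 0.00207), both low levels. ABCG1 was at 3.57 and 3.57 CPM with 1 µM doxorubicin, against 7.04 and 8.03 CPM in DMSO (-0.90 ± 0.13, limma adjusted p = 7.77e-07). The treated libraries were above DMSO for ABCA1 and below it for ABCG1.

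Without parental DMSO replicate 1 there were 26 calls and without replicate 2 there were 25, and 22 of the 26 held in every alternative. LPIN1 was 0.01 under the GC and length correction, the 1 gene of the 26 to change sign there. The summed CPM of the markers of other cell types was 19.5 to 22.1 with 1 µM doxorubicin, against 9.67 to 12.2 in DMSO, with 3 of 5 tested markers higher and 1 lower, and its part in the result was not tested. For the remaining sterol genes, of 21 tested, 13 fell and 8 rose, and of 13 fatty acid genes 11 fell and 0 rose, led by the fatty acid synthase FASN (-2.88 ± 0.15).

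Doxorubicin-resistant cells had few called members at 350 nM doxorubicin. IDI1 was at 105 and 125 CPM in treated libraries, against 74.6 and 79.0 CPM in DMSO (0.57 ± 0.13, limma adjusted p = 0.0129). SC5D was at 51.8 and 64.6 CPM with 350 nM doxorubicin, against 41.2 and 39.9 CPM in DMSO (0.50 ± 0.12, limma adjusted p = 0.0154). TM7SF2 was at 15.2 and 14.6 CPM with 350 nM doxorubicin, against 10.7 and 9.77 CPM in DMSO (0.50 ± 0.14, limma adjusted p = 0.0454). Both treated libraries were above DMSO for each gene. With LPIN1 (0.38) and NPC1 (0.30), 5 of the 32 genes rose and 0 fell, against 2.39% and 1.43% of tested genes, with medians of 0.153 over the 32 genes and 0.003 over all. None of the 5 calls held in every alternative. There were 0 calls without doxorubicin-resistant DMSO replicate 1, 1 without DMSO replicate 2, 3 without treated replicate 1 and 1 without treated replicate 2, and the GC and length correction gave 13. IDI1 was then at 0.53 and 0.61 without DMSO replicates 1 and 2, SC5D at 0.53 and 0.48, and TM7SF2 at 0.56 and 0.43, none of them called. Among the 21 other sterol genes 2 rose and 0 fell, and of 13 fatty acid genes 1 rose and 0 fell.

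At 1 µM doxorubicin the doxorubicin-resistant cells had genes called in both directions. SC5D was at 79.6 and 78.6 CPM with 1 µM doxorubicin, against 41.2 and 39.9 CPM in DMSO (0.95 ± 0.12, limma adjusted p = 1.26e-06). MYLIP was at 23.8 and 24.4 CPM with 1 µM doxorubicin, against 12.5 and 11.7 CPM in DMSO (0.94 ± 0.09, limma adjusted p = 5.26e-08). ABCA1 was at 1.20 and 1.74 CPM with 1 µM doxorubicin, against 0.381 and 0.462 CPM in DMSO (0.79 ± 0.17, limma adjusted p = 0.00083). In each case both treated libraries were the higher ones, and the ratio of the ABCA1 mean levels was 3.49 although the log2 scale with 1 added gave less.

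Of the 32 genes 9 rose and 6 fell, against 19.1% and 19.9% of tested genes, so the share that fell was near that of all genes, with a median of 0.09 over the 32 genes and 0.00 over all. The other genes that rose were TM7SF2 (0.62), NPC1 (0.54), IDI1 (0.53), LPIN1 (0.53), NR1H3 (0.37) and TMEM97 (0.30). SQLE (-0.42), HMGCS1 (-0.40), HSD17B7 (-0.40), FDFT1 (-0.38), SREBF2 (-0.37) and SCAP (-0.37) fell. Of the 6 genes that fell, 5 also fell in parental cells at this dose (of the 20 that fell there), and 6 of the 9 that rose were the 6 that rose in parental cells. Over all tested genes, 81.9% of those that fell and 66.2% of those that rose in the doxorubicin-resistant line did the same in parental cells (39.3% of the genes that fell and 36.9% of those that rose there). TMEM97 rose here and fell in parental cells, as did LPIN1, whose parental call was lost in 7 of 12 alternatives (-0.21 to 0.01). The calls of 11 of the 15 genes held in every alternative, and those of HSD17B7, SCAP, TMEM97 and NR1H3 did not. The summed CPM of the markers of other cell types was 14.8 to 21.7 with 1 µM doxorubicin, against 13.7 in both DMSO libraries, and its part in the result was not tested. Treated replicate 1, the library with the higher sum, held PTPRC at 5.96 CPM, against 0.232 CPM in treated replicate 2. Of 21 other sterol genes 1 rose and 3 fell, and of 13 fatty acid genes 3 rose and 4 fell, with FASN at -0.88 ± 0.15.

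The test of the difference in response to 1 µM doxorubicin, in the doxorubicin-resistant minus the parental line, called 25 of the 32 genes. The difference was 2.24 ± 0.18 for LSS (limma adjusted p = 4.10e-10), which was at 45.0 and 43.5 CPM with doxorubicin against 44.8 and 45.5 CPM in DMSO in the doxorubicin-resistant line. MSMO1 had a difference of 1.82 ± 0.18 (limma adjusted p = 1.46e-08), at 242 and 237 CPM with doxorubicin against 210.0 and 229.6 CPM in DMSO in the doxorubicin-resistant line, and 97.6 and 114 CPM with doxorubicin against 398 and 298 CPM in DMSO in parental cells. SQLE had a difference of 1.70 ± 0.10 (limma adjusted p = 7.03e-12), at 73.5 and 74.0 CPM with doxorubicin against 94.8 and 104 CPM in DMSO in the doxorubicin-resistant line. LSS and MSMO1 were near their DMSO levels in treated doxorubicin-resistant cells and far below them in treated parental cells.

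Of these differences 22 were positive and 3 negative, against 33.2% and 25.1% of tested genes, with a median of 0.695 over the 32 genes and 0.079 over all. The negative ones were MYLIP (-1.59), NPC1 (-0.45) and SC5D (-0.41), 3 genes that rose in both lines. All 4 sensing genes had positive differences, the largest being INSIG1 (1.63), as did DHCR7 (1.68), MVK (1.59), MVD (1.52), TMEM97 (1.11) and ABCG1 (0.86). TM7SF2 (-0.22), IDI1 (0.11), ABCA1 (0.16), HMGCS1 (-0.28), PMVK (-0.43), EBP (0.16) and NR1H2 (-0.0046) were not called. There were 25 calls without parental DMSO replicate 1 and without replicate 2 there were 22, and 20 of the 25 held in every alternative. Those of INSIG2, FDPS, NR1H3, SC5D and SCAP did not. For the remaining sterol genes, of 21 tested, 11 had positive and 5 negative differences, and of 13 fatty acid genes 12 had positive and 0 negative ones.

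Ruxolitinib raised ABCG1 in both lines, alone and on top of paclitaxel. Few other members were called, except in parental cells with paclitaxel. In paclitaxel-resistant cells ABCG1 was at 18.6 and 16.7 CPM with ruxolitinib, against 9.44 and 9.55 CPM in DMSO (0.83 ± 0.13, limma adjusted p = 0.000112). In parental cells it was at 14.2 and 15.2 CPM with ruxolitinib, against 7.04 and 8.03 CPM in DMSO (0.88 ± 0.13, limma adjusted p = 3.16e-05). The treated libraries lay well above DMSO in both lines. With paclitaxel in the paclitaxel-resistant line, ABCG1 was at 15.1 and 14.5 CPM with ruxolitinib and 6.5 nM paclitaxel, against 8.07 and 8.38 CPM with paclitaxel alone (0.78 ± 0.13, limma adjusted p = 0.000516). In parental cells it was at 11.1 and 13.5 CPM with ruxolitinib and 2.5 nM paclitaxel, against 6.18 and 6.07 CPM with paclitaxel alone (0.90 ± 0.13, limma adjusted p = 3.17e-05). ABCG1 was called in every alternative in all 4 comparisons. ABCA1, the related exporter, was not called in any of them (0.07 and -0.20 in paclitaxel-resistant cells, -0.05 and 0.04 in parental cells), nor was MYLIP, another target of the LXR receptors (0.02 and 0.10, 0.13 and 0.07). Levels of ABCA1 were low in these groups (0.163 to 0.800 CPM per library), where the log2 scale with 1 added understates a change. Its lack of a call therefore says little about whether it changed.

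**Figure D4:**
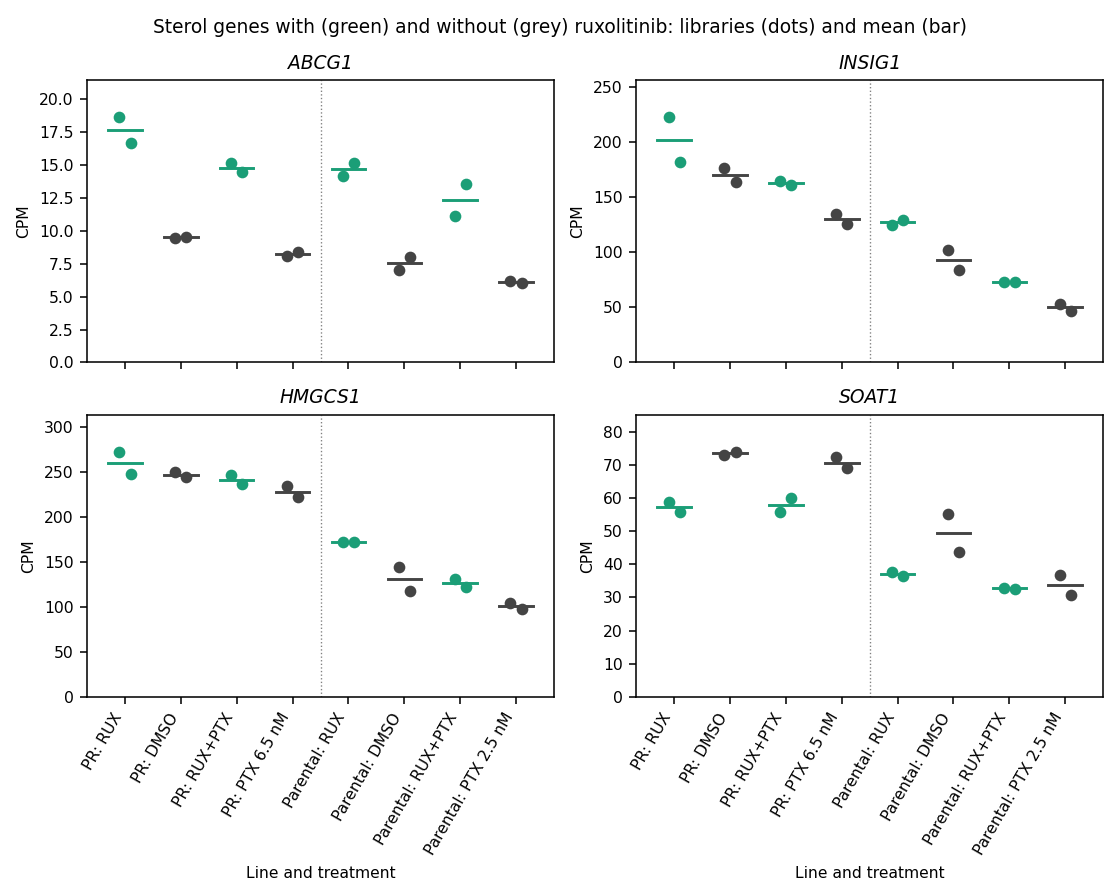
Dots give the CPM of each library and bars the mean of 2 for ABCG1, INSIG1, HMGCS1 and SOAT1 (panels, with axes that start at 0), with ruxolitinib in green and the matching group without it in grey, for the paclitaxel-resistant line on the left of each panel and parental cells on the right. ABCG1 is higher in green than in the neighbouring grey pair in all 4 settings.

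In paclitaxel-resistant cells 1 of the 32 genes rose and 1 fell with ruxolitinib alone, against 2.86% and 4.06% of tested genes, shares near those of the 32, with medians of 0.069 and 0.00. SOAT1 was the gene that fell, at 58.7 and 55.9 CPM with ruxolitinib, against 73.1 and 74.0 CPM in DMSO (-0.36 ± 0.10, limma adjusted p = 0.0244), with no overlap. Its call was lost without any 1 of the 4 libraries, at -0.39 to -0.32. A fit to only this line and the GC and length correction each gave 4 calls. Markers of other cell types summed to 10.3 to 11.3 CPM with ruxolitinib, against 11.8 to 12.3 CPM in DMSO, with 0 of 5 tested markers higher and 1 lower, and their part in the result was not tested. Ruxolitinib on top of 6.5 nM paclitaxel called ABCG1 alone, 1 gene higher and 0 lower, against 1.16% and 2.12% of tested genes, and medians were 0.028 and -0.002. The same alternatives each gave 3 calls there. Of 13 fatty acid genes 1 rose in each case, ACSS2, the cytosolic acetyl-CoA synthetase (0.65 ± 0.09 alone and 0.47 ± 0.09 with paclitaxel), and no other sterol gene was called by limma.

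In parental cells 3 of the 32 genes rose and 1 fell with ruxolitinib alone, against 5.51% and 7.71% of tested genes, with medians of 0.102 and -0.011. INSIG1 was at 125 and 129 CPM with ruxolitinib, against 102 and 84.1 CPM in DMSO (0.45 ± 0.12, limma adjusted p = 0.0148). HMGCS1 was at 172 and 172 CPM with ruxolitinib, against 144 and 117 CPM in DMSO (0.40 ± 0.09, limma adjusted p = 0.0031). SOAT1 was the gene that fell, at 37.5 and 36.6 CPM with ruxolitinib, against 55.0 and 43.7 CPM in DMSO (-0.40 ± 0.10, limma adjusted p = 0.00673). These libraries did not overlap. Without parental DMSO replicate 2 INSIG1 (0.31) and HMGCS1 (0.25) were not called and there were 3 calls. INSIG1 (0.31 to 0.59 over the alternatives) also lost its call without either treated library and in a fit to only the parental line. The call of SOAT1 (-0.56 to -0.23 over the alternatives) was lost without parental DMSO replicate 1, without treated replicate 2 and in a fit to only the parental line. There were 6 calls without parental DMSO replicate 1, 2 without treated replicate 2 and 2 in a fit to only the parental line, and the GC and length correction gave 10. Among the 21 other sterol genes 3 rose and 2 fell, and of 13 fatty acid genes 3 rose and 0 fell, with ACSS2 at 0.61 ± 0.09.

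On top of 2.5 nM paclitaxel in parental cells ruxolitinib raised 9 of the 32 genes and lowered 1, against 15.1% and 12.9% of tested genes, with medians of 0.053 and 0.013. SC5D was at 48.5 and 43.0 CPM with ruxolitinib and paclitaxel, against 31.4 and 28.1 CPM with paclitaxel alone (0.60 ± 0.12, limma adjusted p = 0.00108). INSIG1 was at 73.0 and 72.7 CPM with ruxolitinib and paclitaxel, against 53.2 and 47.1 CPM with paclitaxel alone (0.53 ± 0.12, limma adjusted p = 0.00315). Both genes lay apart from paclitaxel alone in both libraries. The others that rose were INSIG2 (0.51), IDI1 (0.43), HSD17B7 (0.39), STARD4 (0.37), TMEM97 (0.33) and HMGCS1 (0.32), and NR1H2 fell (-0.48). ABCG1 and SC5D held in every alternative. Without replicate 2 of paclitaxel alone there were 2 calls and INSIG1 was not among them (0.45), without replicate 1 of the combination there were 3, and a fit to only the parental line gave 4. Of 21 other sterol genes 4 rose and 2 fell, led by VLDLR, a lipoprotein receptor (0.65 ± 0.12), and of 13 fatty acid genes 5 rose and 0 fell.

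The response to 15 µM ruxolitinib was not called different between paclitaxel-resistant and parental cells for any member. Limma called 0 positive and 0 negative differences of the 32, against 0.298% and 0.11% of tested genes. At an unadjusted p under 0.05 there was 1, and the voom fit called 0. There were also 0 calls without either parental DMSO library. For ABCG1 the difference was -0.05 ± 0.18 and for SOAT1 0.04 ± 0.14, while HMGCS1 had -0.33 ± 0.13 (limma adjusted p = 0.499). The median difference was -0.071 over the 32 genes and 0.009 over all, and no gene of the other lists was called by limma.

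Several members departed from the enzymes of their own pathway in more than 1 comparison. TM7SF2 was called higher in doxorubicin-resistant than in parental cells and higher with 65 nM and 1 µM doxorubicin in parental cells, while most sterol-step genes were not called or fell. Its group means spanned 16.2 ± 0.0905 CPM in doxorubicin-resistant cells with 1 µM doxorubicin and 6.09 ± 0.597 CPM in parental DMSO cells (n = 2 each). SC5D, another enzyme of the sterol steps, was called higher with 1 µM doxorubicin in both lines, at 79.1 ± 0.688 CPM against 40.5 ± 0.911 CPM in DMSO in doxorubicin-resistant cells and 92.2 ± 11.5 CPM against 35.5 ± 6.58 CPM in DMSO in parental cells. NPC1 was called higher with 10 nM paclitaxel and with 1 µM doxorubicin in every line that received them. No count of such departures was tested.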

How the data were processed

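The authors deposited 1 table of log2(CPM + 1) values for 20114 gene symbols, with CPM scaled by TMM factors. The deposited table's name gives TMM and CPM, and the log2 scale with 1 added was read from the deposited values, whose CPM are 0 or more. Per the submitters' processing notes the authors used STAR 2.5.1b, edgeR and GRCh37 (hg19), with no statement of the counting tool or gene annotation in these sources. All values (100%) were whole reads within a tolerance of 0.01.

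Tests used limma 3.58.1 in R 4.3.3 on the deposited log2 values, with a means model of 15 groups, a variance trend and robust estimation (15 residual degrees of freedom, median prior 8.08). Each gene had 1 spread for all groups. Tests were two-sided, over 12743 genes in 18 comparisons, of which 3 set the response of a resistant line against that of parental cells. Other steps ran in Python 3.11.15 and pandas 2.3.3. The procedure was also run on simulated data with independent noise for each gene and library. GC-linked differences between libraries were not simulated, so that run does not bear on them. The 32 genes and the other lists were chosen with earlier results of these data known. Values per library are given for up to 3 called genes of the 32 with the largest change in each comparison of a pair of groups. For the differences in response they are given in part. Every called gene of the 32 against the main direction is named. Other genes come from lists of 24 sterol and 14 fatty acid genes, of which 21 and 13 were tested, with at most 3 of the largest called changes.

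The alternatives comprised replicate number as a block, each library left out, a pseudocount of 0.25 CPM, testing without the filter, median-of-ratios scaling, a fit to only the lines compared, voom on recovered reads, and a GC and length correction with and without the block. The voom fit called 9657 genes for 1 µM doxorubicin in parental cells, against 9659 here, and 5 for 6.5 nM paclitaxel in the paclitaxel-resistant line, against 12. A group reduced to 1 library was assumed to vary like the others. Promoter windows came from RefSeq (GRCh38.p14), which is not the authors' build, so no other coordinates are given.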

Additional observations from a re-analysis of the deposited data

Results flagged for a closer look

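The response to 1 µM doxorubicin in doxorubicin-resistant minus parental cells was called different for 25 of the 32 genes by a limma test of the difference itself (22 positive and 3 negative, against 33.2% and 25.1% of tested genes), with the largest log2 differences in LSS (2.24), MSMO1 (1.82) and SQLE (1.70). The response to 10 nM paclitaxel in paclitaxel-resistant minus parental cells was called different for 4 genes by the same kind of test (3 positive and 1 negative, against 6.87% and 3.88% of tested genes, shares near those of the 32), led by FDFT1 (0.58), MYLIP (-0.57) and TMEM97 (0.52). The calls of FDFT1 and MYLIP held in every alternative, and those of TMEM97 and SOAT1 did not. Both tests set groups of 2 libraries against each other, and parental DMSO enters both, so they are not independent of each other.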

How the results depend on the processing

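Of 228 recounts of called members, 183 stayed within 1.5 times the reported count. A pseudocount of 0.25 CPM, no filter, median-of-ratios scaling and voom moved none beyond that. The replicate block moved none either (11 calls with it for doxorubicin-resistant against parental cells, 4 rather than 5 at 350 nM doxorubicin). The replicate numbers did not pair the libraries: over 105 pairs of groups the correlation of deviations ran from -0.689 to 0.65 (median 0.002). The block cost SC5D its call between the resistant lines, TM7SF2 its call at 350 nM and NR1H3 its call at 1 µM doxorubicin in the doxorubicin-resistant line.

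The GC and length correction, with or without the block, gave 18 calls for doxorubicin-resistant against parental cells (11 reported), 14 for 65 nM doxorubicin in parental cells (7), 13 for 350 nM in the doxorubicin-resistant line (5), 10 for ruxolitinib in parental cells (4), 4 in paclitaxel-resistant cells (2) and 3 on top of paclitaxel there (1), and 15 differences in response to 10 nM paclitaxel (4). For 6.5 nM paclitaxel (0 reported) it gave 2 calls, and 1 with the block, and for the difference in response to ruxolitinib (0) 1 with the block. A fit to only the lines compared gave 7 calls for doxorubicin-resistant against parental cells, 9 for 2.5 nM paclitaxel (17), 1 for 65 nM doxorubicin, 2 for ruxolitinib and 4 for ruxolitinib on paclitaxel (10) in parental cells, and 1 for 6.5 nM paclitaxel, 4 for ruxolitinib and 3 for ruxolitinib on paclitaxel in paclitaxel-resistant cells. The cause was not tested.

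With 1 library left out, counts ran from 6 to 12 for doxorubicin-resistant against parental cells, 6 to 16 for 2.5 nM paclitaxel, 1 to 12 for 65 nM doxorubicin, 2 to 6 for ruxolitinib and 2 to 12 for ruxolitinib on paclitaxel in parental cells. They ran from 0 to 3 for 350 nM doxorubicin, 11 to 15 for 10 nM paclitaxel and 1 to 1 for ruxolitinib in the resistant lines, and 2 to 7 for the difference in response to 10 nM paclitaxel. Of 564 values for the 45 largest changes of called members (up to 3 in each comparison), 533 kept direction and call, 31 kept direction only and 0 reversed. At 18443749 reads or more per library, ABCA1 and NR1H3 were the members nearest the detection limit.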
